A study of Mus musculus with 6 samples.

Results

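The 7 genes described here encode the major histocompatibility complex (MHC) class II presentation machinery of the mouse. They are H2-Aa, H2-Ab1, H2-Eb1, Cd74, Ciita, H2-DMa and H2-DMb1, a list given by name, and they were 7 of the 55402 features in the deposited count matrices. Their levels were read in resident macrophages, other macrophages, dendritic cells, endothelial cells and stromal cells of the aortic root, by genotype.

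Single cells came from the aortic root with part of the ascending aorta of male mice aged 24 weeks, with the aortas of 4 animals pooled for each genotype. Mice of 2 groups carried the Marfan allele Fbn1 C1041G/+, one with an induced, smooth muscle cell (SMC) specific Klf4 deletion (labelled Klf4-floxed) and one with control Klf4 (called Marfan below), and the third group were their littermate controls (called control). Digested cells were sorted by the SMC lineage tracer tdTomato into a lineage-negative and a lineage-positive library per genotype, which gave 6 libraries from Chromium 3' version 3 chemistry. Each group was thus 1 library of pooled animals, so no spread between animals could be estimated and no test was made. All intervals below are 95% counting intervals, which cover counting error only, and PCR and pooling error lie outside them. Where a group is named without its fraction, the lineage-negative library is meant.

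The 6 libraries held 47750360 to 95250397 unique molecular identifiers (UMIs), and 39483 cells passed the filters. The median depth was 9881 to 12858 UMIs per cell in 5 libraries and 2143 in the lineage-positive Marfan library. Klf4 was not lower in the libraries labelled Klf4-floxed: it stood at 116, 44.6 and 30.4 CPM (UMIs of the gene scaled to a common total of UMIs) in the lineage-positive libraries labelled Klf4-floxed, Marfan and control, while the lineage-negative ones held 358, 268 and 280 CPM. A 3' tag outside the deleted part does not check a floxed allele, so these cells are called by their label. Between 9 and 60 cell barcodes were shared by each pair of libraries, at most 0.671% of the smaller library.

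MHC class II molecules present peptides from internalised material to CD4+ T cells. An alpha and a beta chain pair in the endoplasmic reticulum with the invariant chain (Cd74), which blocks the groove and steers the complex to endosomes, where H2-DM exchanges the remaining invariant chain fragment for peptide. H2-Aa and H2-Ab1 encode the chains of the I-A molecule, and H2-Eb1 the beta chain of I-E. Ciita is the transcriptional coactivator that switches these genes on. It does not bind DNA itself but docks on factors (RFX and NF-Y among them) held at the X and Y boxes of class II promoters. Dendritic cells, B cells and many macrophages carry class II constitutively, and interferon gamma induces it in other cells through Ciita.

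By the GENCODE M21 annotation of the build used (mm10), all 7 are protein-coding genes, and 5 of them lie within the MHC on chromosome 17. H2-DMa is at chr17:34119541-34139101, H2-DMb1 at chr17:34153072-34160230, H2-Ab1 at chr17:34257689-34269419 and H2-Eb1 at chr17:34305867-34316674, all on the plus strand, and H2-Aa is at chr17:34282744-34287823 on the minus strand. Ciita lies at chr16:10480059-10528418 on the plus strand, and Cd74 lies on another chromosome. H2-DMb1 and its neighbour H2-DMb2, and H2-Eb1 and H2-Eb2, are related gene pairs, so reads shared within a pair make each split uncertain.

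The promoters of class II genes are shown because the shared X and Y boxes are the sites through which Ciita is known to act. RefSeq promoter windows (GRCm38.p6, 250 bases before to 50 bases after the gene start) were searched for an X box (CTNGNAAC) followed on the same strand, within 30 bases, by a Y box (GATTGG). The pair was found in 25 of 32851 promoters (0.0761%), although the Y box alone was in 16.1% and the X box alone in 13.2% of them on either strand, and the 2 motifs do not overlap in any of the windows shown. Capitals mark the X box and then the Y box, and each sequence runs 5' to 3' on the strand of its gene.
H2-Aa: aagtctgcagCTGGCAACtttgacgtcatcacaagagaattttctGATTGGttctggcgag
H2-Eb1: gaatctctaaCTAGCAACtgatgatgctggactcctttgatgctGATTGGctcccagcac
H2-DMb1: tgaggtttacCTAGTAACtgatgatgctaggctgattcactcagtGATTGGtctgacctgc
H2-Ob: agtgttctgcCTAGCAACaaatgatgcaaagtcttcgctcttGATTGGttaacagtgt
These windows are chr17:34287857-34287917 (minus strand), chr17:34305763-34305822 (plus), chr17:34153084-34153144 (plus) and chr17:34238805-34238862 (plus) in the order shown. The X box began 84, 94, 97 and 90 bases before the gene start, and 27, 26, 27 and 24 bases separated it from the Y box. H2-Ob, the beta chain of the H2-DM inhibitor H2-O, is shown as a class II gene outside the 7 that carries the same pair. Promoter windows of 4 of the 7 genes were read (the 3 above and H2-DMa, which has 2 annotated starts). The pair was not in the windows of H2-DMa, H2-DMb2, H2-Eb2 or H2-Oa. A match is a description of the letters and not of binding.

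Cell classes were built by clustering without any of the 12 class II genes, so that these genes do not define the classes in which they are compared. The genes given next belong to the marker sets that named the classes, so their levels describe the classes and do not check them. Lyve1 stood at 1369, 1567 and 1471 CPM in resident macrophages of the libraries labelled Klf4-floxed, Marfan and control, against 20.9, 32.3 and 9.77 CPM in other macrophages. Cd209a, a lectin of conventional dendritic cells, stood at 439, 460 and 464 CPM in dendritic cells and at 0.863, 2.15 and 5.58 CPM in other macrophages. Pecam1 stood at 2444, 1810 and 1634 CPM in endothelial cells, against 10.4, 14.5 and 16.5 CPM in fibroblasts. Resident macrophages numbered 319, 302 and 234 cells in the libraries labelled Klf4-floxed, Marfan and control, other macrophages 497, 728 and 138, and dendritic cells 37, 92 and 24. Fibroblasts numbered 2898, 2842 and 2076 cells, and blood endothelial cells 124, 161 and 41. A cluster led by Hsd11b1 and Gdf10 (1111, 1085 and 1122 cells in the same order) matched the fibroblast markers best. It was left unnamed and is not counted among these fibroblasts.

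Among the classes compared here, the 7 genes together were highest in dendritic cells, followed by other macrophages, resident macrophages, 2 clusters of fibroblasts and endothelial cells. This order of the classes held in each of the 3 lineage-negative libraries. By cluster, the Cxcl9, Zmynd15 and the Cx3cr1, C1qb macrophages of Marfan, described below, stood above its dendritic cells. The summed level in dendritic cells was 64007, 59642 and 62765 CPM in the libraries labelled Klf4-floxed, Marfan and control. Other macrophages had 38399.8 CPM in the library labelled Klf4-floxed and 50340.5 CPM in Marfan, against 53660.0 CPM in control. Resident macrophages had 9977 CPM in the library labelled Klf4-floxed and 14777 CPM in Marfan, against 11780.1 CPM in control. Dendritic cells thus stood 6.42-fold, 4.04-fold and 5.33-fold above resident macrophages, and 1.67-fold, 1.18-fold and 1.17-fold above other macrophages. The gap between other and resident macrophages was 3.85-fold in the library labelled Klf4-floxed, 3.41-fold in Marfan and 4.56-fold in control. Counting intervals of the sum did not overlap between neighbours in this order within any of these libraries.

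**Figure D1:**
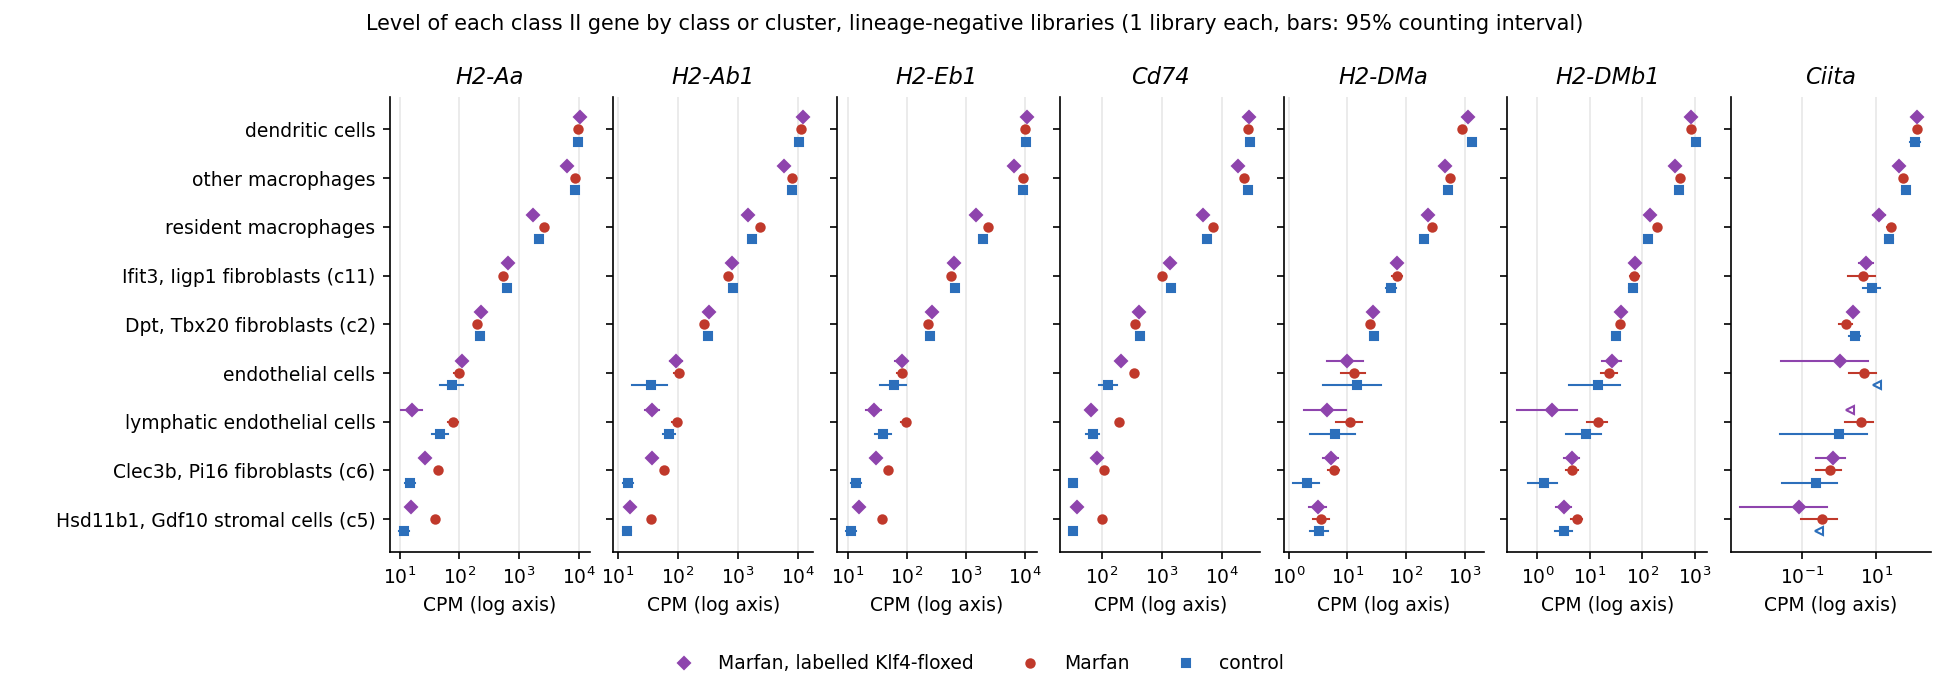
Level of each of the 7 genes (CPM on log axes, a separate axis per gene) in immune, endothelial and stromal cells of the 3 lineage-negative libraries, 1 point per library with its 95% counting interval. Open triangles mark 0 UMIs and are drawn at the level of 3 UMIs. H2-Aa ranges from 10399, 9771 and 9584 CPM in dendritic cells of the libraries labelled Klf4-floxed, Marfan and control to 15.4, 39.1 and 11.8 CPM in the Hsd11b1, Gdf10 cells.

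Ciita, the switch of the set, had the same order over the immune classes at a far lower level. Dendritic cells had 127, 129 and 111 CPM of Ciita in the libraries labelled Klf4-floxed, Marfan and control, other macrophages 42.1, 54.1 and 63.5 CPM, and resident macrophages 12.2, 24.6 and 22.6 CPM. Dendritic cells stood 10.4-fold, 5.23-fold and 4.91-fold above resident macrophages in Ciita. Monocytes were numerous in the Marfan library alone (197 cells, against 4 in the library labelled Klf4-floxed and 1 in control). Their summed level there was 9298 CPM, 0.185-fold of that in other macrophages, with Ciita at 12.1 CPM. Marfan neutrophils, a cell type that should not carry class II, had 2120 CPM. A cluster led by cell-cycle genes, left unnamed (41, 67 and 26 cells), had 23752, 22074 and 27532 CPM.

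Cd74 was the most abundant of the 7 in each immune class, and the make-up of the sum differed between these classes and the Dpt, Tbx20 fibroblasts introduced below. These are shares of UMIs from 3' tags, for which no length scaling applies. Cd74 took 49.1%, 47.7% and 47.3% of the sum in resident macrophages of the libraries labelled Klf4-floxed, Marfan and control, 48.7%, 46.6% and 50.3% in other macrophages, and 44.5%, 45% and 47.6% in dendritic cells. In the Dpt, Tbx20 fibroblasts Cd74 took 31.8%, 32.3% and 33.4%, while other fibroblasts lay nearer the immune classes, at 38.3%, 34.4% and 39.1% in the Ifit3, Iigp1 cells and 44.9%, 40.4% and 41.0% in the Clec3b, Pi16 cells. H2-Ab1 made up 25.3%, 24.5% and 25.1% in the Dpt, Tbx20 cells, against 14.9%, 15.7% and 14.5% in resident macrophages.

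Resident macrophages of the Marfan library carried somewhat more class II than those of control, and those of the library labelled Klf4-floxed carried less than Marfan. The 2 comparisons share the Marfan library, so they are not independent. Among the chain genes H2-Ab1 differed most, with 2327 CPM in Marfan, against 1712 CPM in control (log2 ratio 0.44, interval 0.39 to 0.50). Cd74 stood at 7044 CPM in Marfan, against 5570 CPM in control (0.34). H2-Aa had 2596 CPM in Marfan, against 2187 CPM in control (0.25), and H2-Eb1 had 2325 CPM in Marfan, against 1962 CPM in control (0.24). Of the pair that loads peptide, H2-DMa stood at 271 CPM in Marfan, against 201 CPM in control (0.43), and H2-DMb1 at 189 CPM in Marfan, against 127 CPM in control (0.58, interval 0.38 to 0.78), just inside a 1.5-fold difference. Ciita could not be separated from no difference by counting (24.6 CPM in Marfan, 22.6 CPM in control, log2 ratio 0.13, interval -0.39 to 0.65). None of the 7 genes was 1.5-fold higher or lower in Marfan, where 4.52% of the 9179 genes measured were higher and 7.59% lower, and the median over the 7 was 0.34, against -0.03 over all measured genes. The summed log2 ratio was 0.33 (interval 0.31 to 0.35). It moved to 0.63 when cells needed 2000 UMIs, to 0.75 with doublets kept, to 0.22 when cells of up to 20% mitochondrial UMIs were allowed, and to 0.64 with clusters weighted alike.

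Set against Marfan, resident macrophages of the library labelled Klf4-floxed were lower in all 7 genes. The chains fell together: H2-Ab1 had 1486 CPM in the library labelled Klf4-floxed and 2327 CPM in Marfan (log2 ratio -0.65, interval -0.70 to -0.59). H2-Eb1 had 1494 CPM in the library labelled Klf4-floxed and 2325 CPM in Marfan (-0.64), and H2-Aa 1718 CPM and 2596 CPM in the same order (-0.60). Ciita stood at 12.2 CPM in the library labelled Klf4-floxed and 24.6 CPM in Marfan (-1.01, interval -1.64 to -0.41), from 35 and 72 UMIs. These 4 of the 7 passed 1.5-fold, where 6.46% of the 9146 genes measured were lower and 6.11% higher. Cd74 (-0.52), H2-DMb1 (-0.45) and H2-DMa (-0.23) stayed within it. The summed log2 ratio was -0.57, and it ranged from -0.84 to -0.39 over the other processing choices, on the lower side in each.

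**Figure D2:**
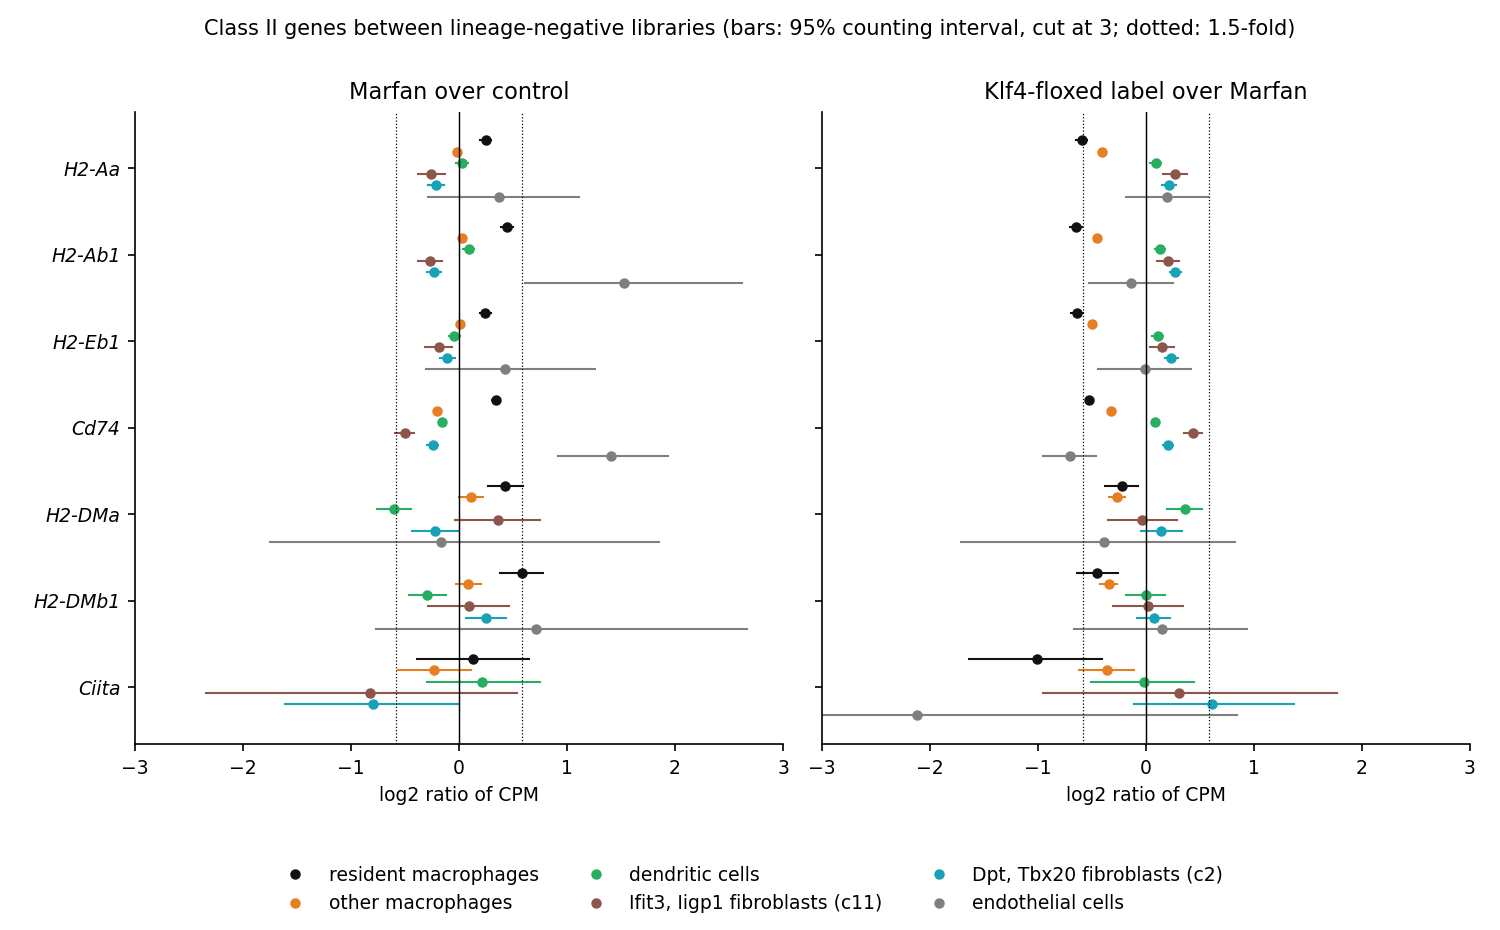
Log2 ratio of CPM for each of the 7 genes, Marfan over control on the left and the library labelled Klf4-floxed over Marfan on the right, with 95% counting intervals and dotted lines at 1.5-fold. Resident macrophages (black) lie right of 0 on the left and left of 0 on the right for each gene, while the points of the Dpt, Tbx20 fibroblasts lie on the other side of 0 from them for the 3 chains and Cd74.

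Other macrophages did not differ by 1.5-fold in any of the 7 genes in either comparison. H2-Aa had 6402 CPM in the library labelled Klf4-floxed and 8515 CPM in Marfan, against 8605 CPM in control. Cd74 had 18695 CPM in the library labelled Klf4-floxed and 23471 CPM in Marfan, against 26998 CPM in control. H2-Aa, H2-Ab1 and H2-Eb1 were within 0.03 of 0 on the log2 scale between Marfan and control, and Cd74 was lower by a log2 ratio of -0.20. With 0 of 7 past 1.5-fold, 10.9% of the 8750 genes measured were higher and 5.74% lower in that comparison. The library labelled Klf4-floxed was below Marfan for every gene, from -0.27 for H2-DMa to -0.50 for H2-Eb1, again 0 of 7 past 1.5-fold where 3.9% of the 8738 genes measured were higher and 3.18% lower. The sum gave -0.09 between Marfan and control and -0.39 between the library labelled Klf4-floxed and Marfan. The first turned to 0.04 when cells of 500 UMIs were admitted, and the second was -0.08 when up to 20% mitochondrial UMIs were allowed.

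Within both macrophage classes, the difference between Marfan and control was not alike over the clusters. Among resident macrophages, the Lyve1, Folr2 cluster had 13538 CPM of class II in Marfan, against 15082 CPM in control (log2 ratio -0.16, 0 of 7 genes past 1.5-fold, where 7.2% of genes were higher and 10.6% lower), a ratio that turned to 0.23 when up to 20% mitochondrial UMIs were allowed. The Fcrls, Mrc1 cluster had 16805 CPM in Marfan, against 6508 CPM in control (1.37, interval 1.31 to 1.43), and there all 7 genes were at least 1.5-fold higher, from 0.72 for H2-DMa to 1.68 for H2-Ab1, where 17% of genes were higher and 23.3% lower. It held 56 cells in Marfan and 41 in control. The Cxcl13, Lyz1 cluster had 17012.0 CPM in Marfan, against 8828 CPM in control (0.95), and 6 of the 7 genes passed 1.5-fold, where 16.8% of genes were higher and 18.3% lower. Set against Marfan, the library labelled Klf4-floxed was lower in these clusters by log2 ratios of -0.45, -0.67 and -0.98, with 3, 5 and 6 of the 7 genes past 1.5-fold, where 9.24%, 14.2% and 18.8% of genes were lower. The clusters' shares differed too: 156 of the 319 resident cells labelled Klf4-floxed were in the Fcrls, Mrc1 cluster, while 194 of 302 in Marfan and 132 of 234 in control were in the Lyve1, Folr2 cluster.

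Among other macrophages, 3 clusters were lower in Marfan than in control. The Nes, Mmp12 cluster, led by the gene of a macrophage elastase, had 36066 CPM in the library labelled Klf4-floxed and 35822 CPM in Marfan, against 53021 CPM in control, a log2 ratio of -0.57 between Marfan and control. The Ccl3, Cd83 cluster had 33597, 34003 and 48007 CPM in the same order of libraries (-0.50), and the Ifit2, Cxcl10 cluster, whose leading genes are interferon-induced, had 42063, 48635 and 59336 CPM (-0.29, which became 0.03 with doublets removed at the same rate in every library). In these clusters 2, 1 and 0 of the 7 genes were at least 1.5-fold lower, where 10.8%, 17.9% and 14.7% of genes were lower, and 1 was higher in the Ifit2, Cxcl10 cluster, where 35.9% of genes were higher. The Cxcl9, Zmynd15 cluster carried the most class II of any macrophage cluster in Marfan, 67879 CPM over 171 cells, against 45854 CPM over 40 cells in the library labelled Klf4-floxed. H2-Eb1 and H2-Aa were among its 10 leading genes although they took no part in the clustering. It held 3 control cells, too few for a level. The Cx3cr1, C1qb cluster had 43093 CPM in the library labelled Klf4-floxed and 66566 CPM in Marfan, against 54532 CPM in control. That cluster scored 0.078 on the resident markers and 0.110 on the other macrophage markers (mean z-scores), so its class is a near tie. Counting it with the resident macrophages took the resident log2 ratio of Marfan over control to 0.72. Without the Cxcl9, Zmynd15 cluster the ratio in other macrophages was -0.35 between Marfan and control and -0.18 between the library labelled Klf4-floxed and Marfan.

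**Figure D3:**
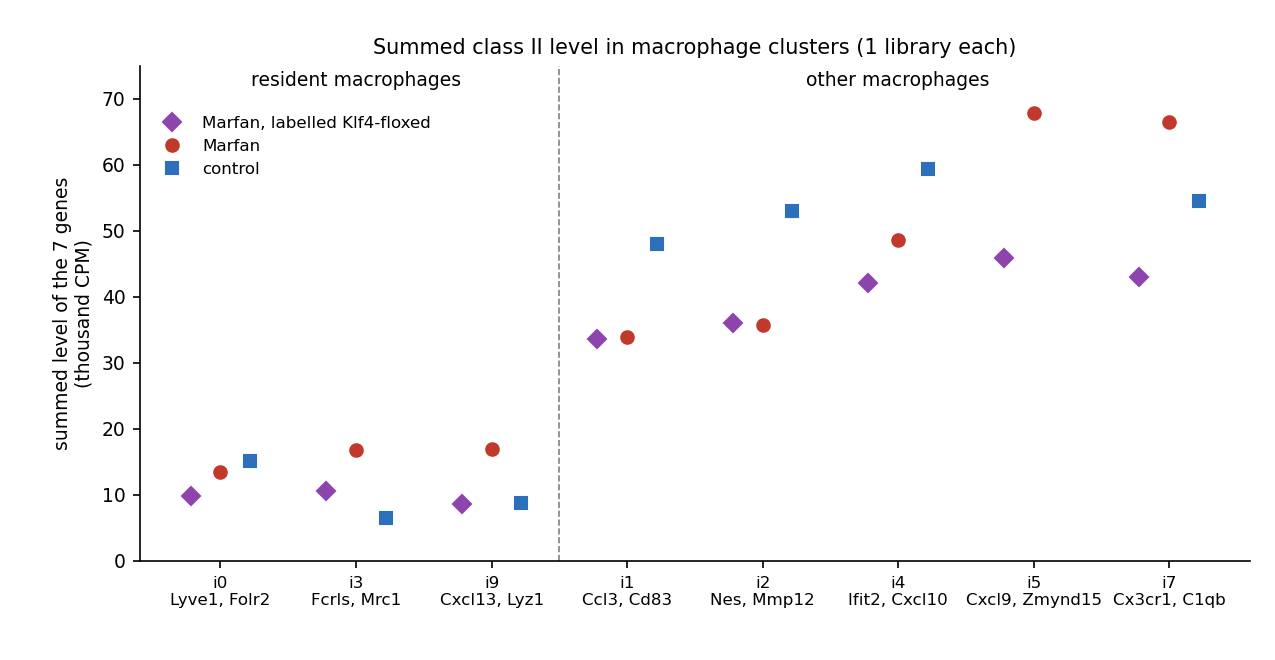
Summed level of the 7 genes (axis in units of 1000 CPM) in each resident and other macrophage cluster, 1 point per library, named by 2 leading genes. Marfan lies above control in the Fcrls, Mrc1, the Cxcl13, Lyz1 and the Cx3cr1, C1qb clusters. It lies below control in the Lyve1, Folr2, Ccl3, Cd83, Nes, Mmp12 and Ifit2, Cxcl10 clusters, and control has no point in the Cxcl9, Zmynd15 cluster.

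Dendritic cells had nearly the same class II level in the 3 libraries. H2-Ab1 had 12401 CPM in the library labelled Klf4-floxed and 11312 CPM in Marfan, against 10622 CPM in control. Cd74 had 28459 CPM in the library labelled Klf4-floxed and 26823 CPM in Marfan, against 29903 CPM in control. H2-DMa alone passed 1.5-fold between Marfan and control, at 880 CPM in Marfan, against 1333 CPM in control (log2 ratio -0.60, interval -0.76 to -0.44), 1 of 7 where 20.8% of the 9126 genes measured were higher and 23.6% lower. For the library labelled Klf4-floxed over Marfan none passed, where 16% of the 8647 genes measured were higher and 25.4% lower. The high background shares go with the 37, 92 and 24 cells in the class, and the median depth was 13458, 10758 and 18557 UMIs. The Cd209a cluster had 64018 CPM in the library labelled Klf4-floxed and 60866 CPM in Marfan, against 63601 CPM in control. The Clec9a, Xcr1 cells, which bear the markers of cross-presenting dendritic cells, had 53187 CPM over 18 Marfan cells and were too few elsewhere.

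The spread over cells differed in kind between the immune classes. With every cell thinned to 2000 UMIs (6, 10 and 6 resident cells and 14, 26 and 2 other macrophages were too shallow in the libraries labelled Klf4-floxed, Marfan and control), the median resident macrophage had 4, 8 and 4 class II UMIs. The 90th percentile of resident cells was 75.2, 106 and 81.1, and 15%, 23.6% and 17.1% had 50 or more. Other macrophages had medians of 75, 102 and 118 UMIs, and 57.8%, 67.1% and 79.4% of them had 50 or more. Dendritic cells had medians of 124, 114 and 109, and 97.0%, 92.5% and 95.7% of them had 50 or more. In the Cxcl13, Lyz1 resident cluster the median was 1 in the library labelled Klf4-floxed, 14 in Marfan and 2 in control.

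**Figure D4:**
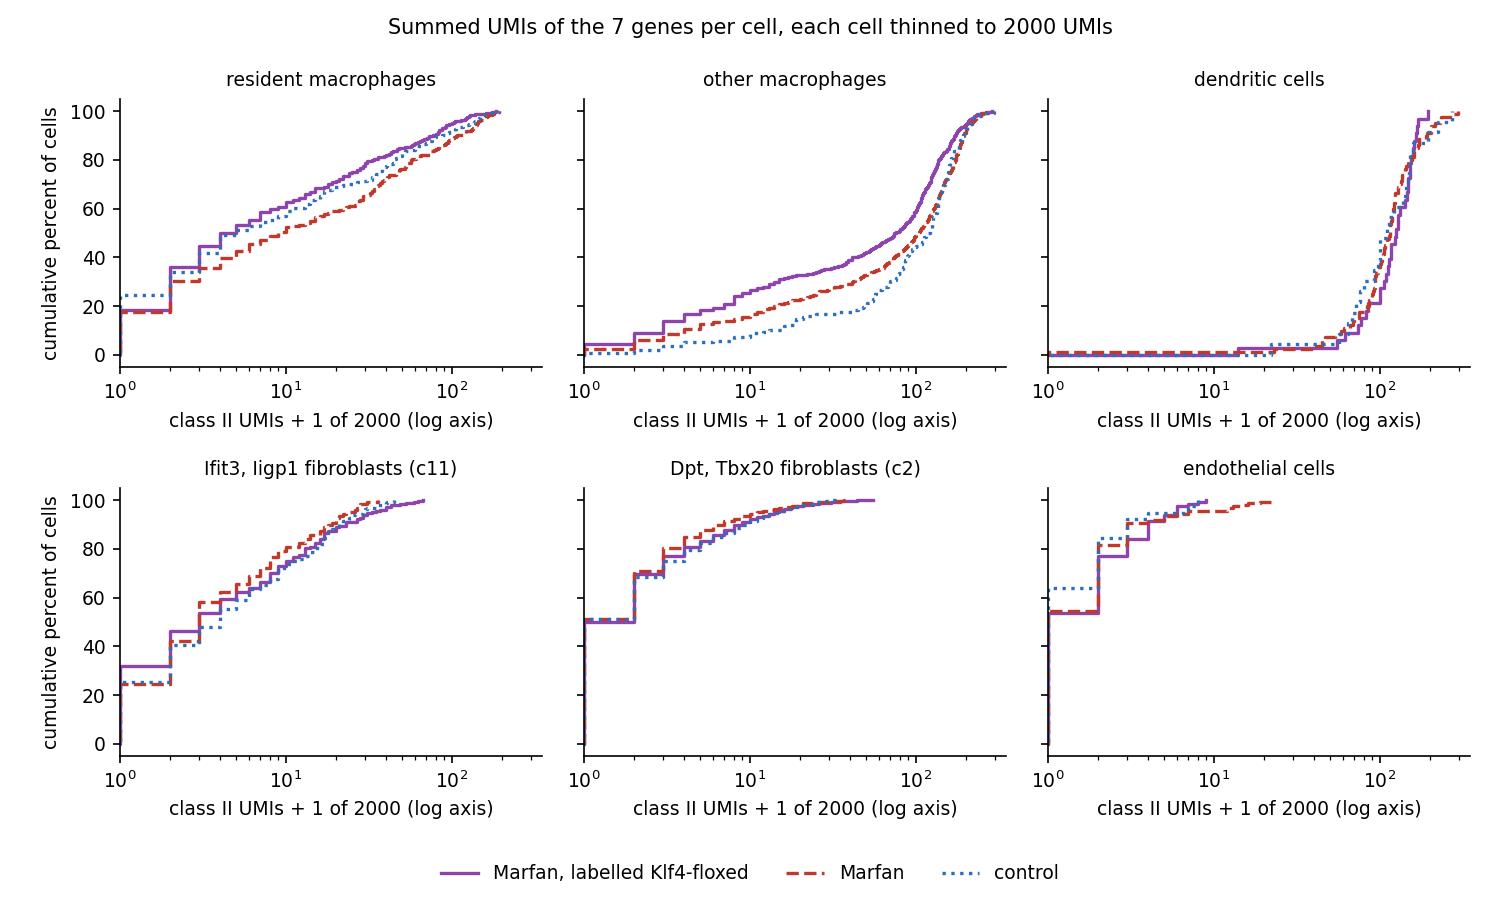
Cumulative percent of cells by their summed class II UMIs plus 1 (log axis), each cell thinned to 2000 UMIs, in 6 classes or clusters of the lineage-negative libraries. Resident macrophages rise gradually from 0 UMIs to above 100, and their Marfan curve lies right of the others through most of its middle range. Other macrophages rise over a wide range (10th percentiles of 2, 3 and 13.5 UMIs in the libraries labelled Klf4-floxed, Marfan and control). Dendritic cells rise late (73.6, 59.7 and 63.8 UMIs).

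Fibroblasts carried class II in 2 of their clusters. The Dpt, Tbx20 fibroblasts (1658, 1372 and 1058 cells in the libraries labelled Klf4-floxed, Marfan and control), led by the matrix protein gene Dpt and the cardiac transcription factor gene Tbx20, had a summed level of 1312, 1124 and 1287 CPM. The Ifit3, Iigp1 fibroblasts (297, 121 and 165 cells), led by interferon-induced genes, had 3598, 2964 and 3697 CPM, 2.74-fold, 2.64-fold and 2.87-fold the level of the Dpt, Tbx20 cells. The Clec3b, Pi16 fibroblasts (943, 1349 and 853 cells) had 188, 272 and 80.5 CPM. For comparison, the untraced SMC in the same sorted fraction, taken here as cells that should lack the genes, had 107, 114 and 169 CPM. Marfan neutrophils, which should also lack them, stood at the level given above, higher than the Marfan Dpt, Tbx20 cells. Other macrophages stood 10.7-fold, 17-fold and 14.5-fold above the Ifit3, Iigp1 cells.

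In the Ifit3, Iigp1 fibroblasts, H2-Ab1 had 801 CPM in the library labelled Klf4-floxed and 697 CPM in Marfan, against 840 CPM in control, and Cd74 had 1379, 1020.3 and 1444 CPM. H2-Eb1 had 627, 566 and 644 CPM there, and Ciita 5.52, 4.46 and 7.89 CPM. All 7 genes were detected in the cluster in each library. H2-Ob and H2-DMb2 had 0 UMIs in it in every library, where 3 UMIs would have been 0.690, 1.91 and 1.48 CPM. In dendritic cells H2-Ob stood at 90.8, 66.2 and 44.8 CPM and H2-DMb2 at 232, 113 and 174 CPM.

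Free RNA from lysed macrophages can place class II UMIs in other droplets, so the 7 macrophage transcripts C1qa, C1qb, C1qc, Tyrobp, Fcer1g, Lyz2 and Laptm5 were read beside them. Over the whole library there were 1.07, 1.26 and 1.08 class II UMIs per macrophage transcript UMI in the libraries labelled Klf4-floxed, Marfan and control. In the Ifit3, Iigp1 fibroblasts there were 38.5, 22.7 and 38.6, and in the Dpt, Tbx20 fibroblasts 12.5, 7 and 13.8. The macrophage transcripts themselves summed to 93.4, 131 and 95.6 CPM in the first and 105, 161 and 93.4 CPM in the second. The Clec3b, Pi16 fibroblasts had 1.59, 1.55 and 0.737, close to the whole library.

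**Figure D5:**
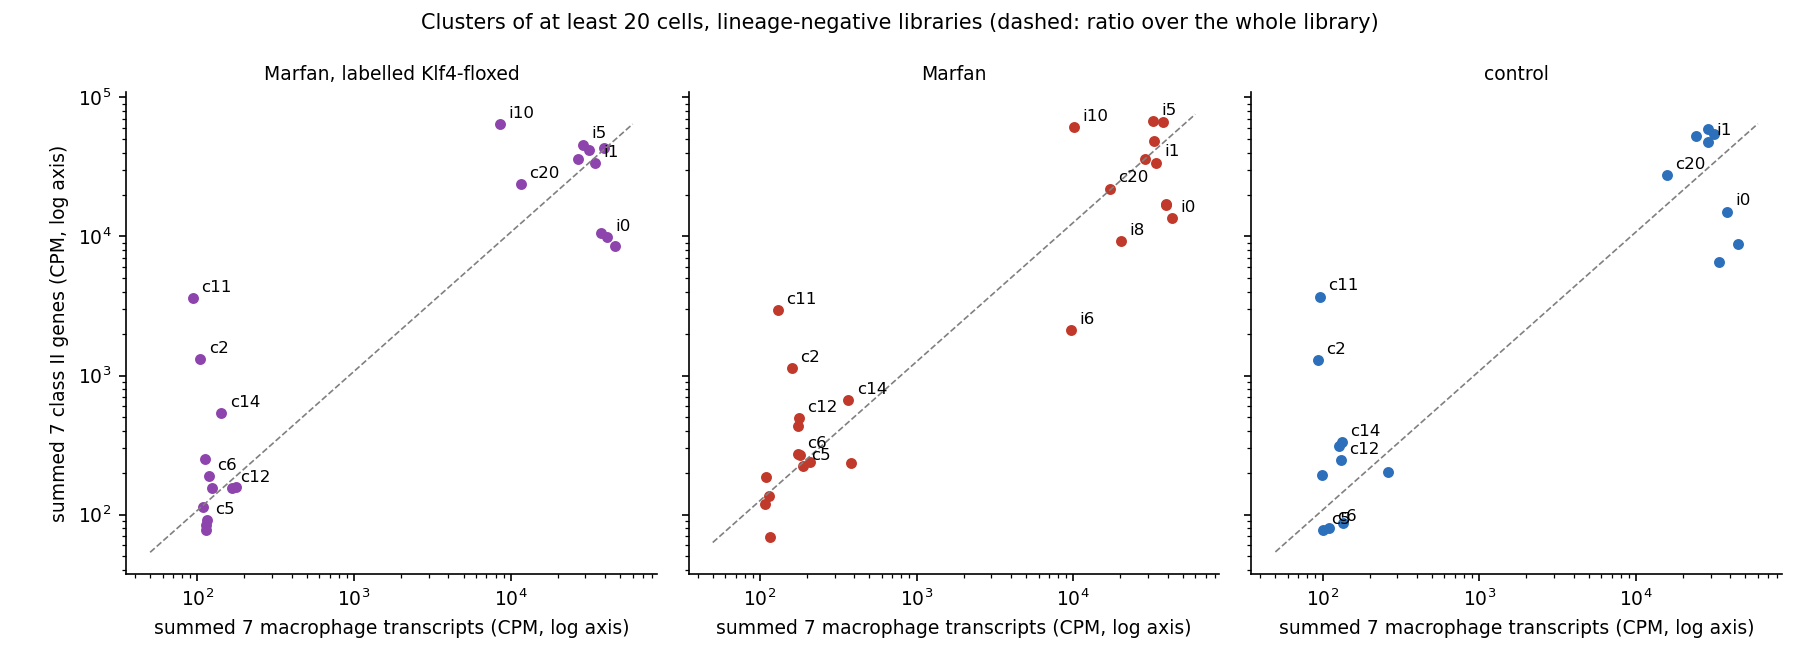
Summed class II genes against 7 summed macrophage transcripts (both CPM, log axes) for each cluster of at least 20 cells, 1 panel per lineage-negative library, with the whole-library ratio as a dashed line. The Ifit3, Iigp1 (c11) and Dpt, Tbx20 (c2) fibroblasts lie above the line at a macrophage transcript level like that of the stromal clusters near it, and the resident macrophages (i0) lie below it.

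By cell, 68.1%, 75.6% and 74.5% of Ifit3, Iigp1 fibroblasts of the libraries labelled Klf4-floxed, Marfan and control had a UMI of any of the 7 genes at 2000 UMIs (92.3%, 98.3% and 90.3% unthinned). In the Dpt, Tbx20 cells it was 50%, 49.0% and 48.9% (83.4%, 86.7% and 80.2% unthinned). Untraced SMC were taken as the background, at 20.8%, 23.7% and 17.6% (62.1%, 74.0% and 60.7% unthinned, median depth 11798.5, 13513 and 11948.5 UMIs). The Clec3b, Pi16 fibroblasts, at 20.5%, 26.4% and 15% (57.2%, 68.3% and 47.2% unthinned), did not stand apart from that background beyond the intervals. Cells with 5 or more class II UMIs made up 37.6%, 34.5% and 41.0% of Ifit3, Iigp1 cells, 16.7%, 12.3% and 17.7% of Dpt, Tbx20 cells, and 0.757%, 1.46% and 0.244% of Clec3b, Pi16 cells. Marfan neutrophils, which should also lack the genes, had a median of 1 class II UMI at 2000 UMIs, against 0 in Marfan Dpt, Tbx20 cells. Of the 137 neutrophils deep enough, 3.65% had 5 or more.

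Neither class II fibroblast cluster was higher in Marfan. In the Dpt, Tbx20 cells the summed log2 ratio was -0.19 between Marfan and control (interval -0.23 to -0.16) and 0.22 between the library labelled Klf4-floxed and Marfan. There, 0 of the 6 genes measured passed 1.5-fold in either comparison, where 1.95% and 1.45% of genes were higher and 2.3% and 1.77% lower. In the Ifit3, Iigp1 cells the sum gave -0.32 between Marfan and control, and Ciita alone was past 1.5-fold (4.46 CPM in Marfan, 7.89 CPM in control, log2 ratio -0.82), from 7 and 16 UMIs, where 10.5% of genes were higher and 11.1% lower. Ciita reached 5 CPM in control alone, so it could be called only as lower. With the library labelled Klf4-floxed set against Marfan the sum gave 0.28, with 0 of 7 past 1.5-fold, where 8.22% were higher and 10.3% lower. When cells of 500 UMIs were admitted, the best-matching cluster gave -1.02 and 0.60, but its share of common cells (Jaccard index) was only 0.286.

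Over all cells named fibroblasts the sum was 1311 CPM in the library labelled Klf4-floxed and 842 CPM in Marfan, against 1057 CPM in control. The Hsd11b1, Gdf10 cells, left unnamed and described below, are not in this sum. The log2 ratio was -0.33 between Marfan and control, with 0 of 6 genes past 1.5-fold (1.56% of genes higher, 2.34% lower). It was 0.64 between the library labelled Klf4-floxed and Marfan, with H2-Aa, H2-Ab1, H2-Eb1 and Cd74 at 0.60 to 0.67 past it (1.8% of genes higher, 1.99% lower). With clusters weighted alike these were -0.22 and 0.23, and the shares of the Ifit3, Iigp1 cells differed, at 4.99%, 1.72% and 3.80% of all cells. The first was 0.12 with cells of 500 UMIs admitted, and the second 1.47 with doublets kept.

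The Clec3b, Pi16 fibroblasts and the Hsd11b1, Gdf10 cells were higher in Marfan than in control, beside untraced SMC at 107, 114 and 169 CPM in the libraries labelled Klf4-floxed, Marfan and control. The Clec3b, Pi16 fibroblasts had 44.8 CPM of H2-Aa in Marfan, against 15 CPM in control, and 110 CPM of Cd74 in Marfan, against 33.1 CPM in control. The sum gave a log2 ratio of 1.76 (interval 1.64 to 1.88), and all 5 genes measured were 1.5-fold higher, where 2.92% of genes were higher and 4.23% lower. Of these, H2-DMa reached 5 CPM in Marfan alone (5.82 CPM, against 2.04 CPM in control), so it could be called only as higher. Macrophage transcripts moved with the sum, at 176 CPM in Marfan, against 109 CPM in control, and so did Iigp1 (116 CPM in Marfan, 21.6 CPM in control) and Cxcl9 (16.2 CPM in Marfan, 0.240 CPM in control). Their part in the class II difference was not tested. For the library labelled Klf4-floxed over Marfan, H2-Aa (-0.77), H2-Ab1 (-0.68) and H2-Eb1 (-0.65) passed 1.5-fold on the lower side, where 2.46% of genes were higher and 1.86% lower, and H2-Ab1 and H2-Eb1 turned to the higher side under 4 other processing choices. With doublets removed at the same rate in every library, the best-matching cluster had a summed log2 ratio of 1.22 between Marfan and control, and 0.33 in place of -0.53 between the library labelled Klf4-floxed and Marfan. The Hsd11b1, Gdf10 cells had 91.7 CPM of the sum in the library labelled Klf4-floxed and 225 CPM in Marfan, against 76.9 CPM in control. All 5 genes measured were higher in Marfan than in control there (4.77% of genes higher, 5.41% lower), and all 5 were lower in the library labelled Klf4-floxed than in Marfan (1.02% of genes higher, 2.21% lower). Of these, H2-DMb1 reached 5 CPM in Marfan alone (3.21, 5.61 and 3.20 CPM in the libraries labelled Klf4-floxed, Marfan and control). It could thus be called only as higher in Marfan. Their macrophage transcripts stood at 116, 188 and 100 CPM. Few Hsd11b1, Gdf10 cells had a high class II count in Marfan. With cells thinned as above, the median cell had 0 class II UMIs in each library. In the same order of libraries, 0%, 0.574% and 0% had 5 or more, and the highest cell had 4, 51 and 4. The sum in these cells was not recomputed under other processing choices, such as doublets removed at the same rate in every library.

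Blood endothelial cells had 535, 667 and 330 CPM of class II in the libraries labelled Klf4-floxed, Marfan and control. Cd74 had 210 CPM in the library labelled Klf4-floxed and 342 CPM in Marfan, against 129 CPM in control, and H2-Ab1 had 94.6, 104 and 35.9 CPM. The control values rest on 41 cells, with 36 UMIs of Cd74 and 10 of H2-Ab1. Between Marfan and control the sum gave a log2 ratio of 1.01 (interval 0.71 to 1.34). Of 6 genes measured, Cd74 (1.41), H2-Ab1 (1.53) and H2-DMb1 (0.72, from 35 and 4 UMIs) were past 1.5-fold, where 20.1% of genes were higher and 23.9% lower. With the library labelled Klf4-floxed set against Marfan, Cd74 was lower (-0.71), 1 of 6 where 11.9% of genes were higher and 11.8% lower. Macrophage transcripts stood at 142, 367 and 133 CPM in these cells, and class II UMIs per macrophage transcript at 3.76, 1.82 and 2.49, so the order of the libraries differed between the 2 measures, and the part of macrophage RNA was not tested. The share of cells with any class II UMI was 46.5%, 45.5% and 35.9% at 2000 UMIs (71.0%, 78.3% and 63.4% unthinned), with intervals that overlap between the libraries. Lymphatic endothelial cells had 155, 497 and 247 CPM, with Cd74 at 67.1, 197 and 71.3 CPM. There 5 of 6 genes measured were higher in Marfan than in control (10.6% of genes higher, 18.7% lower), and 6 of 6 were lower in the library labelled Klf4-floxed than in Marfan (8.69% higher, 10.7% lower). In the latter comparison H2-DMa (4.52 and 11.1 CPM) and H2-DMb1 (1.94 and 14.3 CPM) reached 5 CPM in Marfan alone, so they could be called only as lower. Few lymphatic cells carried the Marfan level: the median cell had 0 class II UMIs at 2000 UMIs in each library, 0%, 3.96% and 0% had 5 or more, and the highest cell had 4, 46 and 4. The summed log2 ratio of 1.01 between Marfan and control dropped to 0.16 when up to 20% mitochondrial UMIs were allowed and to 0.66 with doublets removed at the same rate in every library, and the -1.68 between the library labelled Klf4-floxed and Marfan became -1.33 with that same rate.

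Traced cells named SMC held little class II, except for 1 small SMC cluster, and a mixed cluster is set apart below. A Tnnt2, Fhl2 cluster that matched SMC best was left unnamed and is not in these SMC values. It held 617, 493 and 297 cells in the lineage-positive libraries labelled Klf4-floxed, Marfan and control. Their mean was 0.165, 0.75 and 0.207 class II UMIs at 2000 UMIs, and 0.980%, 4.67% and 1.02% had 5 or more. The other clusters named SMC, summed, had 6.88, 54.0 and 15.8 CPM in the lineage-positive libraries labelled Klf4-floxed, Marfan and control. The Iigp1, Ifit3 SMC (45, 86 and 31 cells) had 1090.2 CPM in the library labelled Klf4-floxed and 3113 CPM in Marfan, against 389 CPM in control, 159-fold, 57.6-fold and 24.6-fold above the others. Cd74 had 411 CPM in the library labelled Klf4-floxed and 1341 CPM in Marfan, against 109 CPM in control, and H2-Ab1 had 298, 698 and 120.0 CPM. Their macrophage transcripts were 1, 11 and 0 UMIs, beside 787, 2935 and 146 class II UMIs, and Ptprc, the pan-leukocyte gene, had 0 UMIs in each. Myh11, the smooth muscle myosin gene, stood at 1133, 1228 and 1766 CPM in them, and Iigp1 at 1261, 855 and 184 CPM. Between Marfan and control the sum gave a log2 ratio of 3.00 (interval 2.76 to 3.25). The 6 genes with UMIs in every library were at least 1.5-fold higher in Marfan, where 22.2% of the 10117 genes measured were higher and 20.1% lower, and Ciita had 11 UMIs in Marfan and 0 in control. Between the library labelled Klf4-floxed and Marfan the sum gave -1.51 (interval -1.63 to -1.40), and 6 of 7 genes were lower, where 16.6% were lower and 15.3% higher. By cell, 13.3%, 30.4% and 9.68% had 5 or more class II UMIs at 2000 UMIs (17 Marfan cells were too shallow). The cluster held 17.9%, 25% and 4.37% of all class II UMIs of kept lineage-positive cells, while making up 0.747%, 0.787% and 0.597% of the cells. The cells of this cluster were poorly recovered under other cell filters, with a share of common cells (Jaccard index) of 0.171 at 500 UMIs, 0.0702 at 2000 UMIs and 0.0994 at 20% mitochondrial UMIs. The best-matching cluster then gave 2.22 to 3.31 between Marfan and control and -2.28 to -1.12 between the library labelled Klf4-floxed and Marfan, with no value at 500 UMIs. The mixed cluster, left unnamed, had 29 cells in lineage-positive Marfan and 7 in each of the other lineage-positive libraries. It was led by Acta2, Tagln, Myl9 and Myh11 and yet held 3136 CPM of C1qa and 295 CPM of Ptprc, with 14865 CPM of the 7 class II genes and a median of 46 class II UMIs over the 14 Marfan cells deep enough. Whether its droplets hold more than 1 cell was not tested.

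In the lineage-negative libraries, the class II RNA was divided among cells as follows. Other macrophages held 58.4%, 65.7% and 44.0% of the class II UMIs of kept cells in the libraries labelled Klf4-floxed, Marfan and control, at 8.35%, 10.3% and 3.17% of the cells. The Cxcl9, Zmynd15 cluster alone held 9.06%, 27.9% and 0.954%. Resident macrophages held 9.39%, 7.60% and 17.6%, and dendritic cells 8.79%, 10.9% and 13.6%. Fibroblasts, without the Hsd11b1, Gdf10 cells, made up 48.7%, 40.4% and 47.8% of the cells and held 14.7%, 4.70% and 13.5%. Dissociation and sorting set how many cells of each type were recovered, so these shares describe the suspensions.

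Other genes of the pathway were read from 6 lists: other class II genes, class II transcription, the interferon gamma pathway, peptide processing, costimulation and class I presentation. The share of all measured genes past 1.5-fold, given above for each class and repeated here, is the background for each count. In these lists too, a gene that reached 5 CPM in only 1 library of a comparison could be called only as higher in that library. In resident macrophages, between Marfan and control, the transcription list (RFX and NF-Y subunits among them) had 1 of 9 measured genes higher and 0 lower, where 4.52% of all measured genes were higher and 7.59% lower. That gene was Rfxap, an RFX subunit, at 35.5 CPM in Marfan, against 22.6 CPM in control. The interferon gamma list had 4 of 10 higher and 0 lower. Cxcl9, a chemokine induced by interferon gamma, had 20.8 CPM in Marfan, against 0.765 CPM in control. Peptide processing had 0 of 7 in either direction, costimulation 1 of 6 lower (Icosl), class I presentation 1 of 9 higher (Tap1), and H2-Ob, the 1 measured gene among the other class II genes, was higher. H2-Ob reached 5 CPM in Marfan alone (5.47 CPM, against 1.53 CPM in control, interval of the log2 ratio 0.21 to 3.88), so it could be called only as higher. Between the library labelled Klf4-floxed and Marfan the interferon gamma list had 2 of 10 lower (Cxcl9 and Cxcl10), costimulation 1 of 6 higher, and the other 4 lists none, where 6.11% of all measured genes were higher and 6.46% lower.

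In other macrophages, the interferon gamma list had 3 of 10 genes higher and 1 lower between Marfan and control, where 10.9% of all measured genes were higher and 5.74% lower. Cxcl9 had 895 CPM in Marfan, against 239 CPM in control, and Cxcl10 was the lower one, at 391 CPM in Marfan, against 739 CPM in control. Between the library labelled Klf4-floxed and Marfan, Cxcl9 was the 1 of 10 lower, at 129 CPM and 895 CPM in that order, where 3.9% were higher and 3.18% lower. Costimulation had 2 of 6 higher and 3 lower between Marfan and control, and 0 higher and 2 lower between the library labelled Klf4-floxed and Marfan. The peptide processing and class I lists had 0 in both directions in both comparisons. Transcription had 1 of 8 higher and then 0 of 9, and other class II genes 1 of 3 higher and 2 lower, then 0 of 3.

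In dendritic cells, peptide processing had 3 of 7 higher between Marfan and control and 5 of 7 lower between the library labelled Klf4-floxed and Marfan. Among the endosomal proteases, Ctss, the cathepsin that trims the invariant chain, had 1342 CPM in the library labelled Klf4-floxed and 2122 CPM in Marfan, against 1404 CPM in control, and Ctsd had 57.3, 184 and 200.3 CPM. Class I presentation had 5 of 9 higher between Marfan and control and 0 of 9 in the other comparison, and costimulation had 3 of 7 and 2 of 7 higher. Transcription had 1 of 10 higher and 2 lower in both comparisons, the interferon gamma list 2 of 10 higher and 1 lower and then 2 higher and 2 lower, and other class II genes 2 of 4 higher and 1 lower and then 3 higher. The background shares for these counts are those given above for dendritic cells.

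In the Ifit3, Iigp1 fibroblasts, 3 of 10 genes of the interferon gamma list were lower in Marfan than in control and 0 higher, where 11.1% of all measured genes were lower. Socs1, a feedback inhibitor of the pathway, had 30.8 CPM in the library labelled Klf4-floxed and 56.7 CPM in Marfan, against 129 CPM in control. Between the library labelled Klf4-floxed and Marfan, 3 of 10 were lower, with Cxcl10 at 894 CPM in the library labelled Klf4-floxed and 5699 CPM in Marfan, where 10.3% were lower. Costimulation had 3 of 4 lower and then 2 of 4 lower, class I presentation 2 of 9 lower and then 1 of 9 lower, transcription 1 of 8 higher and then 1 of 8 lower, and peptide processing 0 of 6 and then 1 of 6 lower.

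In the Dpt, Tbx20 fibroblasts, Irf1, an interferon-induced transcription factor, was the 1 of 9 genes of the interferon gamma list lower in Marfan than in control and the 1 of 9 higher in the library labelled Klf4-floxed than in Marfan, at 65.3, 38.7 and 58.8 CPM in the libraries labelled Klf4-floxed, Marfan and control. Peptide processing had 1 of 6 higher and then 1 of 6 lower, costimulation 1 of 3 lower and then 1 of 3 higher, and transcription and class I presentation 0 of 8 in both comparisons. The background was 1.95% higher and 2.3% lower, then 1.45% and 1.77%. In the Clec3b, Pi16 fibroblasts, between Marfan and control, the interferon gamma list had 4 of 10 genes higher and class I presentation 4 of 8 higher, with the class I heavy chain gene H2-K1 at 797 CPM in Marfan, against 393 CPM in control. Transcription had 1 of 8 lower, peptide processing 1 of 6 higher and costimulation 1 of 2 lower, where 2.92% of all measured genes were higher and 4.23% lower. Between the library labelled Klf4-floxed and Marfan, 2 of 10 of the interferon gamma list, 2 of 8 of class I presentation and 1 of 6 of peptide processing were lower, costimulation had 1 of 3 higher and transcription 0 of 8, where 2.46% were higher and 1.86% lower.

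In endothelial cells, between Marfan and control, transcription had 4 of 9 genes higher and 3 lower, the interferon gamma list 2 of 10 higher and 1 lower, peptide processing 3 of 6 higher, costimulation 2 of 3 lower and class I presentation 0 of 8, where 20.1% of all measured genes were higher and 23.9% lower. In the comparison of the library labelled Klf4-floxed with Marfan, transcription had 2 of 9 higher and 2 lower, the interferon gamma list 3 of 10 lower, peptide processing 1 of 6 lower, costimulation 1 of 4 higher and 1 lower, and class I presentation 1 of 9 higher, where 11.9% were higher and 11.8% lower. The control side of these counts rests on 41 cells.

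Ifng itself was seen as 30 UMIs in 11 Marfan T cells (386 CPM), 3 in Marfan dendritic cells, 3 in Marfan fibroblasts and 1 in Marfan other macrophages. In the lineage-negative libraries labelled Klf4-floxed and control it had 0 UMIs in resident macrophages, other macrophages, dendritic cells, fibroblasts and endothelial cells. T cells were too few there to compare: 10 cells labelled Klf4-floxed had 0 Ifng UMIs, and control had 1 T cell.

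Over 6 classes in 3 lineage-negative libraries (18 points), genes outside the class II family were ranked by likeness to the mean log level of the 7. The classes were resident and other macrophages, fibroblasts, lymphatic endothelial cells, valve interstitial or chondrocyte cells and untraced SMC. Dendritic and blood endothelial cells fell under 50 cells in some library and took no part. The most alike genes were Ctsz, Basp1, Csf2ra, Ptpn22, Slc15a3, Apobec1, Taok3 and Cyba, with Pearson correlations of 0.977 to 0.986 among 9163 genes. The members themselves had 0.971 (H2-DMb1) to 0.999 (H2-Aa), with Ciita at 0.981. Each member is part of that mean, here and below, so these values cannot be set beside those of other genes. The points share libraries and differ mainly between immune and other cells. Over 7 stromal and lymphatic endothelial clusters (21 points, a set added after the data were seen), the most alike were Csf2rb (0.927), Saraf (0.922) and Chmp4b (0.916) among 8538 genes, with Ciita at 0.907. Csf2rb had 14.5, 11.9 and 15.6 CPM in the Dpt, Tbx20 fibroblasts and 38.6, 26.8 and 28.1 CPM in the Ifit3, Iigp1 fibroblasts of the libraries labelled Klf4-floxed, Marfan and control, against 5.18, 2.30 and 1.68 CPM in the Clec3b, Pi16 fibroblasts.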

How the data were processed

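Per the file headers, the deposited matrices hold raw UMI counts per gene and cell from Cell Ranger 6.1.2, and per the submitters' processing notes the build was mm10. All columns of the 6 matrices were used. Cells were kept at a minimum of 1000 UMIs and 500 genes and at most 10% mitochondrial UMIs, and doublets were called per library with scanpy 1.11.5 (0.8% per 1000 cells where the automatic cut-off marked under 0.5%). The lineage-negative Marfan library alone kept the automatic cut-off and was filtered least: 70 of its 7105 cells were removed, against 314 of 6263 and 163 of 4510 in the lineage-negative libraries labelled Klf4-floxed and control. An alternative chosen after seeing the data used the rate in every library, which removed 404 Marfan cells. The 6 libraries were clustered together on 2000 variable genes without 12 class II genes (30 components, 15 neighbours, Leiden resolution 1, leidenalg 0.10.2), and the immune cells again (20 components). No deposited annotation was used, so class names were rebuilt from marker sets. A class needed 3 detected markers.

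Counts were summed per library and class and scaled to CPM. Intervals were exact Poisson for levels, exact binomial for ratios of counts and Clopper-Pearson for shares (scipy 1.17.1). A gene was measured at 5 CPM or more in either library and was said to be past 1.5-fold by the ratio of CPM. A gene that reached 5 CPM in only 1 library of a comparison could be called only as higher in that library. The statistics were tested on simulated data. For shares, cells were thinned to 2000 UMIs. Genes outside the 7 come from 6 lists and named genes were those of each list with the largest resident macrophage ratio between Marfan and control (up to 4), members called in the sentence, and the most alike genes. Members and lists were chosen with earlier results of these data known. Alternatives changed the scaling, the cell filters, the clustering, the thinning and the gene filter. Where they changed the clusters, a single cluster was followed as the one sharing most cells with it.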

Additional observations from a re-analysis of the deposited data

Results flagged for a closer look

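Between Marfan and control, the summed class II level had log2 ratios of 0.33 in resident macrophages and -0.092 in other macrophages, which lie on opposite sides of 0. Between the library labelled Klf4-floxed and Marfan, fibroblasts had 0.64, against -0.57 in resident macrophages and -0.39 in other macrophages. No single fibroblast cluster reached that 0.64: the Dpt, Tbx20 cells had 0.22, the Ifit3, Iigp1 cells 0.28 and the Clec3b, Pi16 cells -0.53. With clusters weighted alike it was 0.23. The shares of the clusters differed between these libraries, and their part in the 0.64 was not tested. Between Marfan and control, the Clec3b, Pi16 fibroblasts had 1.76, against -0.19 in the Dpt, Tbx20 fibroblasts and -0.32 in the Ifit3, Iigp1 fibroblasts. Each group was 1 library, so none of these differences between cell classes was tested.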

How the results depend on the processing

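No paired analysis was possible because each group was 1 library and no test was made. Values below are log2 ratios of the summed 7 genes, and where one moved beyond its counting interval the cause was not tested. For resident macrophages, Marfan over control gave 0.36 with median-of-ratios scaling, 0.38 with each cell scaled to the same total, 0.22 at 500 UMIs, 0.63 at 2000 UMIs, 0.22 at 20% mitochondrial UMIs, 0.75 with doublets kept, 0.47 with class II genes in the clustering and 0.36 with lineage-negative libraries clustered apart. The library labelled Klf4-floxed over Marfan gave -0.69 with each cell scaled alike, -0.52 at 500 and -0.52 at 2000 UMIs, -0.84 at 20%, -0.63 with doublets and -0.39 at immune resolution 2. For other macrophages, Marfan over control gave -0.14 (median of ratios), -0.12 (total without mitochondrial and ribosomal protein genes), -0.12 (each cell alike), 0.041 (500 UMIs), -0.34 (20%), -0.15 (doublets), -0.12 (class II in clustering), -0.057 (apart) and -0.047 (resolution 2). The library labelled Klf4-floxed over Marfan gave -0.34 (each cell alike), -0.43 (500), -0.38 (2000), -0.075 (20%), -0.38 (class II in clustering), -0.41 (apart) and -0.42 (resolution 2). For dendritic cells, Marfan over control gave 0.0057 (median of ratios), -0.019 (each cell alike), -0.045 (500), -0.042 (2000), -0.12 (doublets), -0.039 (class II in clustering) and -0.034 (resolution 2), with no value at 20% for too few control cells. The library labelled Klf4-floxed over Marfan gave 0.13 (median of ratios), 0.17 (without mitochondrial and ribosomal protein genes), 0.029 (each cell alike), 0.072 (2000), -0.38 (20%), 0.066 (class II in clustering) and 0.062 (resolution 2). For fibroblasts, Marfan over control gave -0.28 (median of ratios), 0.12 (500), -0.25 (20%), -0.61 (doublets), -0.36 (class II in clustering) and -0.26 (apart). The library labelled Klf4-floxed over Marfan gave 0.66 (median of ratios), 0.61 (each cell alike), 0.51 (500), 1.11 (20%), 1.47 (doublets), 0.67 (class II in clustering) and 0.70 (apart). For endothelial cells, Marfan over control gave 1.35 (500), 1.38 (20%), 1.40 (doublets) and 1.43 (apart), and the library labelled Klf4-floxed over Marfan gave -0.53 (each cell alike), -0.50 (500), -0.92 (20%), -0.84 (doublets) and -0.86 (apart).

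Alternatives chosen after seeing the data gave, for Marfan over control and then the library labelled Klf4-floxed over Marfan, 0.72 and -0.76 in resident and -0.14 and -0.36 in other macrophages with the Cx3cr1, C1qb cluster counted as resident. Clusters weighted alike gave 0.64 and -0.70 in resident macrophages, -0.22 and -0.26 in other macrophages, and -0.22 and 0.23 in fibroblasts. With doublets removed at the same rate in every library they were 0.36 and -0.53 in resident macrophages, -0.023 and -0.38 in other macrophages, -0.025 and 0.053 in dendritic cells, -0.35 and 0.65 in fibroblasts, and 0.96 and -0.26 in endothelial cells. Other macrophages without the Cxcl9, Zmynd15 cluster gave -0.35 and -0.18, and endothelial cells with lymphatic ones -0.97 in the second comparison. In the Clec3b, Pi16 fibroblasts, H2-Ab1 between the library labelled Klf4-floxed and Marfan turned to 0.37 (500), 0.41 (2000), 0.26 (class II in clustering) and 0.31 (doublets at the same rate), and H2-Eb1 to 0.42, 0.42, 0.35 and 0.35. Lymphatic Cd74 between Marfan and control turned to -0.077 at 20%. Of 2009 values of single genes under the other processing settings, 154 had the opposite sign, and 9 of these belong to the 63 of 207 results past 1.5-fold.

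The share of cells with any class II UMI, at 5000 UMIs and unthinned, was 66.6% and 83.4%, 69.7% and 86.7%, and 66.1% and 80.2% in Dpt, Tbx20 fibroblasts of the libraries labelled Klf4-floxed, Marfan and control. It was 81.3% and 92.3%, 89.5% and 98.3%, and 85.2% and 90.3% in Ifit3, Iigp1 fibroblasts, 38.8% and 57.2%, 46.8% and 68.3%, and 31.2% and 47.2% in Clec3b, Pi16 fibroblasts, and 61.2% and 71.0%, 60% and 78.3%, and 57.1% and 63.4% in endothelial cells. Genes past 1.5-fold numbered, with and without the filter at 5 CPM, for Marfan over control and then the library labelled Klf4-floxed over Marfan, 1112 and 4302, then 1150 and 4381 in resident macrophages, 1460 and 5575, then 619 and 4452 in other macrophages, 4057 and 6438, then 3580 and 6446 in dendritic cells, 397 and 3800, then 383 and 3914 in fibroblasts, and 4573 and 6980, then 2433 and 5019 in endothelial cells. Low counts limit Ciita outside immune cells, and 24 dendritic and 41 endothelial control cells limit those classes.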
